A study of Mus musculus with 6 samples.

Results

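The DNA replication machinery was taken as 46 genes, matched by symbol in the tables of 6 messenger RNA libraries, of 26771 genes listed in any library. All 46 had a row in every library and all passed the filter on low values, so none was left out of the 11265 genes tested. The cells, γδT17 cells, are named for their γδ receptor and for the interleukin-17 they make, and were taken from the spleen of TCRβ-/- mice (strain C57BL/6), which lack one receptor chain of conventional T cells in both groups. The Initial group held 3 libraries of cells sorted out of splenocytes with no culture, and which gate was used is not given here. The Induced group held 3 libraries of γδ T cells grown for 8 days with IL-1β plus IL-23 as the basis of the medium, then purified with a Pan T cell isolation kit. Mice A, B and C occur in both groups. Their age is not stated in the labels. Each group was prepared in its own way, so culture and the way of purification cannot be told apart.

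A cell copies its genome once per division in a fixed order of steps. In G1 the origin recognition complex (ORC), with the loaders Cdc6 and Cdt1, places rings of the MCM proteins on the DNA, and geminin (Gmnn) blocks Cdt1 once S phase has begun. The kinase Cdc7 with its activator Dbf4 then turns the ring, joined by Cdc45 and the GINS complex, into the running helicase, and polymerase α with primase, polymerases δ and ε, the sliding clamp PCNA and its loader RFC, the single-strand binder RPA, Fen1 and Lig1 copy and join the strands. Resting lymphocytes hold most of these messages low and raise them on entry into the cell cycle, in part through E2F transcription factors that bind the promoters of many replication genes.

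Replication genes were higher in the Induced cells nearly throughout. Of the 46, 42 rose, 2 fell (Dbf4 and Orc5) and 2 did not pass the test (Cdt1 and Orc4), and 33 rose at least 2-fold. Of all genes tested 70.4% passed the test in either direction, 37.3% rose, 33.1% fell and 12.0% rose at least 2-fold. The median log2 fold change was 1.60 over the replication genes and 0.03 over all genes tested. Here and below a fold change is Induced minus Initial on the scale of log2(FPKM + 1), which understates the change of genes with low values, with its standard error (SE) and an adjusted p from limma with Benjamini-Hochberg adjustment over all genes tested, called under 0.05. For 8 genes with low Initial values (Cdc6, Clspn, Gins1, Gins2, Mcm10, Orc1, Pola1 and Pole) the change was over 1.5 times larger than with a pseudocount of 5 in place of 1. FPKM is the fragment count scaled to transcript length and to the size of the library, so levels of different genes can be set side by side. The libraries of the groups did not overlap for 45 of the 46 genes, of which 42 were higher and 3 lower in Induced cells, against 75.4% of all genes tested without overlap, 40.0% higher and 35.4% lower.

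The summed level of the 46 genes was 1099, 1049 and 1146 FPKM in the Initial libraries (mice A, B and C, as in every such series below) and 2931, 3067 and 3058 FPKM in the Induced ones. Every Induced library lay above every Initial library. That was 0.243 to 0.250% of the summed FPKM of an Initial library and 0.657 to 0.687% of an Induced library. In bulk libraries a larger share of cycling cells and more message per cell cannot be told apart. The genes also came closer together in level. The standard deviation of log2 FPKM over the 46 genes was 1.74, 1.85 and 1.82 in the Initial libraries and 1.22, 1.22 and 1.23 in the Induced libraries (exact permutation p = 0.1, two-sided, as for every such p below). A p of 0.1 is the smallest that 3 against 3 libraries can give in this test. It treats the 6 libraries as independent and leaves out their pairing by mouse. In each Initial library 10 or 11 of the genes lay under 5 FPKM, while in the Induced libraries none lay under 10 FPKM.

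**Figure D1:**
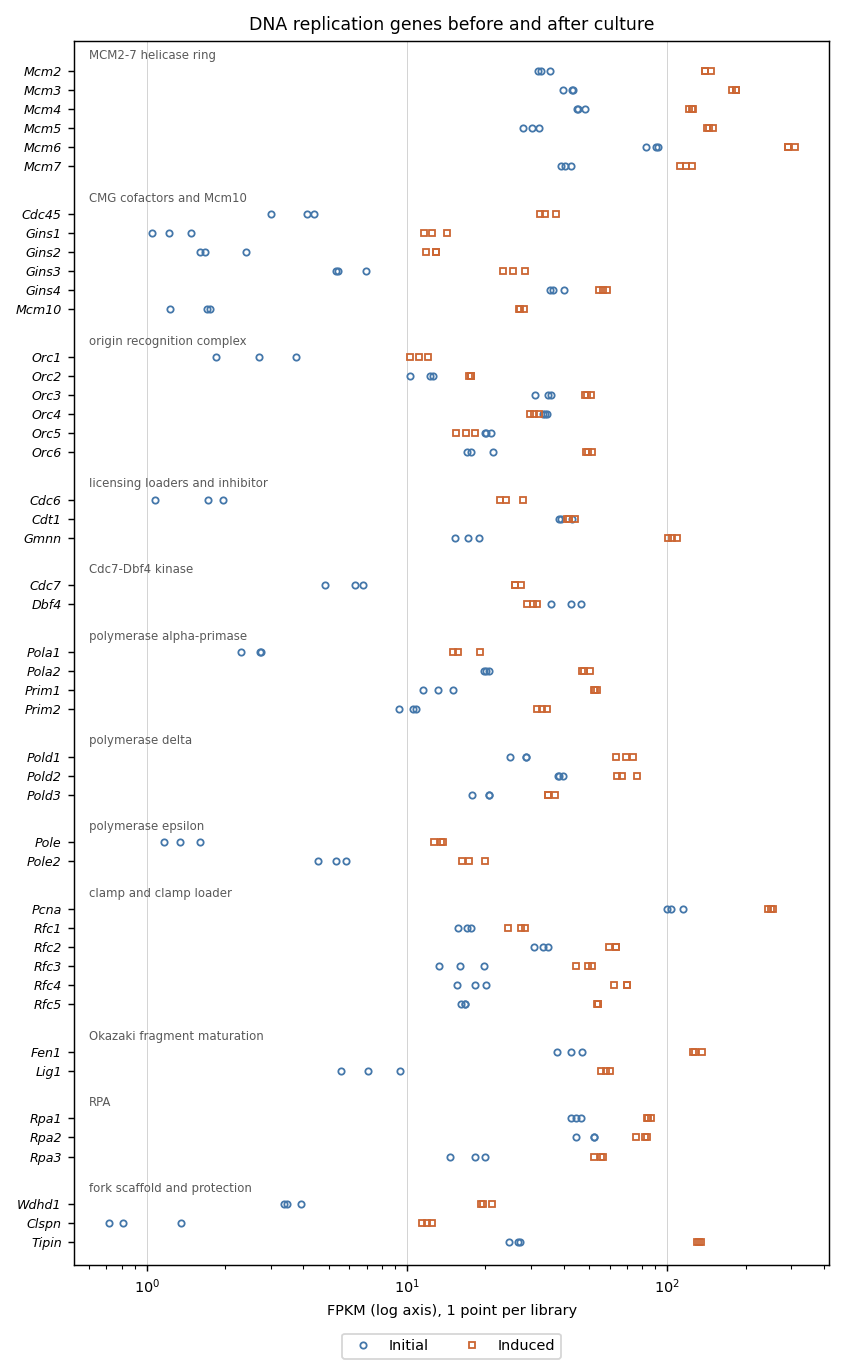
FPKM of the 46 replication genes on a log axis, 1 point per library, with Initial libraries as blue circles and Induced libraries as orange squares, grouped by role. Genes near 1 FPKM before culture, such as Mcm10, Cdc6 and Clspn, moved furthest right, while the points of Cdt1 overlap and those of Orc4, Orc5 and Dbf4 lie slightly to the left after culture.

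A rough estimate of depth from the smallest step between low values gave 20600000 to 24200000 fragments per Initial and 23100000 to 26100000 per Induced library, at which counting alone gave a 2 kb transcript at 1 FPKM a coefficient of variation of 13.8 to 15.6%. T cell markers were present in both groups, with a summed level of Cd3d, Cd3e, Cd3g, Cd247, Trdc and Thy1 of 1580 to 1729 FPKM in Initial and 1420 to 1542 FPKM in Induced libraries, where 1 of the 6 rose and 2 (Cd3d and Cd3e) fell. Of single markers of type 17 cells Il23r, Il1r1 and Blk rose, Ccr6 fell, and Il17a did not pass (7.34 to 15.3 FPKM in Initial and 7.64 to 22.5 FPKM in Induced libraries). Messages of other cells moved with the groups. Of 6 B cell markers 5 fell and 1 was not tested, and their sum went from 186 to 226 FPKM in Initial to 25.02 to 48.1 FPKM in Induced libraries. All 6 macrophage markers fell (sum 411 to 727 against 0.489 to 0.886 FPKM), as did all 6 red cell markers (1217 to 1742 against 1.17 to 1.63 FPKM), of which Alas2 was at 0 in every Induced library. Of 4 NK cell markers 2 fell, 1 did not pass and 1 was not tested (sum 104 to 117 against 19.1 to 77.5 FPKM), and Klra8 was at 0 in every Induced library. Their part in the changes of the replication genes was not tested.

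Promoter windows show what many of these genes share in sequence. RefSeq (GRCm38.p6) gave 46 windows of 300 bases, 250 before and 50 after an annotated start, for 37 of the 46 genes. An E2F-type motif, searched as TTTCCCGC, TTTCGCGC, TTTGCCGC or TTTGGCGC on both strands, was in 16 of the 46 windows (34.8%), in 16 genes. It was in 2.26% of all 32851 windows of the genome's genes and in 4.07% of the 10677 windows of genes tested here. The forms can overlap each other when they lie on opposite strands. CCAAT was in 52.2% of the windows of the replication genes, 37.4% of all windows and 38.4% of those of tested genes. TTTGAA, the letters of the cell cycle homology region, was in 17.4%, 17.9% and 12.4%. Of the 26 genes with a window that had a log2 change of at least 1, 13 held an E2F-type motif, and of the other 11 genes 3 did, namely Cdt1, Orc3 and Pold3. A match is a description of the letters and does not show that a factor binds there.

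These stretches around an E2F-type match, 5′ to 3′ on the gene's strand with the match in capitals, show how the same letters recur in genes of different roles, and that Cdt1, which did not pass the test, holds them too.
Mcm3: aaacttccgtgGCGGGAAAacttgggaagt
Mcm5: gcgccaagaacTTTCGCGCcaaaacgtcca
Mcm6: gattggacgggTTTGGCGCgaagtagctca
Mcm7: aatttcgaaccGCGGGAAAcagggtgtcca
Cdc6: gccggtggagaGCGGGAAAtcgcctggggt
Orc1: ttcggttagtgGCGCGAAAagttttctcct
Pola1: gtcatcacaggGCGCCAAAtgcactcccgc
Gins3: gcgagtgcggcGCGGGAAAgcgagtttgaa
Rfc3: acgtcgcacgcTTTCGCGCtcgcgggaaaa
Cdt1: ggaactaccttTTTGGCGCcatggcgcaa
Their GRCm38 positions are chr1:20820275-20820304, - strand for Mcm3, chr8:75109345-75109374, + strand for Mcm5, chr1:128359734-128359763, - strand for Mcm6, chr5:138172030-138172059, - strand for Mcm7 and chr11:98908002-98908031, + strand for Cdc6. For the others they are chr4:108579416-108579445, + strand for Orc1, chrX:93632275-93632304, - strand for Pola1, chr8:95633507-95633536, + strand for Gins3, chr5:151651200-151651229, - strand for Rfc3 and chr8:122568036-122568064, + strand for Cdt1.

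The 250 bases before the RefSeq start are shown for 4 genes that moved differently, with E2F-type and CCAAT matches on either strand in capitals. The stretch of Cdc6 lies inside the gene span in the GENCODE annotation, which starts further upstream, at 98907801. Mcm6 (chr1:128359706-128359955, - strand), the highest of the 46 genes in Induced cells, has 3 E2F-type and 2 CCAAT matches. Cdc6 (chr11:98907901-98908150, + strand) and Mcm10 (chr2:5012792-5013041, - strand) had the largest log2 changes of the 46 with a pseudocount of 1, with 1 E2F-type match in the first and 2 CCAAT matches in the second. Dbf4 (chr5:8422717-8422966, - strand), which fell, has neither in this stretch. Lack of both was not particular to genes that fell. Orc5, which fell, has neither, but so do genes that rose, such as Wdhd1, Cdc7, Rfc4 and Rfc5.
Mcm6: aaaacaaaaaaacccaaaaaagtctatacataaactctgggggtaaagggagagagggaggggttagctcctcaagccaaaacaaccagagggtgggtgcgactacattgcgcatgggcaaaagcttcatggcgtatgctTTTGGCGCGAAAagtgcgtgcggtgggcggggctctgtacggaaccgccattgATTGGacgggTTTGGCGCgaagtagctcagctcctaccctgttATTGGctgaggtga
Cdc6: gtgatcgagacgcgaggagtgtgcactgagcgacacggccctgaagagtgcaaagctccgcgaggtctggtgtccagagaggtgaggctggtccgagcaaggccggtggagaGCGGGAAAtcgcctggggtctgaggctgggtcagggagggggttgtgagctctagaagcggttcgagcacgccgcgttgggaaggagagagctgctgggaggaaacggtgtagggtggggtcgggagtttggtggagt
Mcm10: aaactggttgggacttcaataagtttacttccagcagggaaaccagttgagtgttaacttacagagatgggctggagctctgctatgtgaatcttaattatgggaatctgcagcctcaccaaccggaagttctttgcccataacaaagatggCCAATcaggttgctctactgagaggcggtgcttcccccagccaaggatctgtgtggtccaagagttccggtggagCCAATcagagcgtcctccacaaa
Dbf4: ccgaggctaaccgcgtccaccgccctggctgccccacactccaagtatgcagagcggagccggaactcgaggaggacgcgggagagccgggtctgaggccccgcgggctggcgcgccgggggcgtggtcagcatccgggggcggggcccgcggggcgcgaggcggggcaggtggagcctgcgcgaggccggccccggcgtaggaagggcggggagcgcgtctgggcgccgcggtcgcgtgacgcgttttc

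All 6 genes of the MCM ring, the motor of the helicase, rose, by log2 changes of 1.399 to 2.24. Mcm5 had 30.2, 27.8 and 32.2 FPKM in Initial and 142, 145 and 150 FPKM in Induced libraries. The change, 2.24 ± 0.07 (SE; adjusted p = 1.4e-07), was the largest of the ring. Mcm4 had the smallest, from 48.2, 45.5 and 45.2 FPKM to 124, 126 and 121 FPKM (1.399 ± 0.06 SE in log2, adjusted p = 5.3e-07). In both genes the groups lay far apart beside the spread within them. Mcm2 (33.3 ± 1.90 to 142 ± 4.02 FPKM, mean ± SD, n = 3), Mcm3 (42.1 ± 2.19 to 181 ± 3.47 FPKM), Mcm6 (88.5 ± 4.73 to 297 ± 10.96 FPKM) and Mcm7 (40.8 ± 1.66 to 118 ± 6.11 FPKM) lay between them in log2 change. The 6 subunits act in equal numbers in the ring. The highest subunit, Mcm6, stood 2.94 ± 0.0763 times above the lowest in Initial and 2.54 ± 0.0718 times in Induced libraries (exact permutation p = 0.1). Mcm6 took 31.5 ± 0.302% of the ring's summed FPKM before culture and 29.5 ± 0.688% after it.

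All 6 partners that complete and start the helicase rose, and Mcm10 and Cdc45 had larger log2 changes than any gene of the ring, also under each of the 16 alternatives. Gins1 did so except with a pseudocount of 5 (1.507, against 2.102 for Mcm5). Mcm10, which acts when the loaded helicase starts to unwind (ENSMUSG00000026669, chromosome 2, 4989714 to 5012791, GRCm38), had 1.71, 1.23 and 1.75 FPKM in the Initial and 26.9, 28.2 and 27.1 FPKM in the Induced libraries. Its log2 change of 3.47 ± 0.10 (SE; adjusted p = 1.2e-07) was the largest of the 46 genes with a pseudocount of 1 or 0.1, but with a pseudocount of 5 (2.303) it stood below Lig1 (2.36) and Gmnn (2.314). Cdc45, a helicase subunit, went from 3.83 ± 0.735 to 34.6 ± 2.54 FPKM (2.89 ± 0.12 SE in log2). Its low Initial level is uncertain, because 6.0% of its exon bases also lie in exons of Ufd1 on the other strand. Ufd1 had 43.9 to 49.4 FPKM in Initial and 38.3 to 38.7 FPKM in Induced libraries. Among the GINS subunits, Gins1 went from 1.25 ± 0.217 to 12.8 ± 1.34 FPKM, Gins2 from 1.89 ± 0.447 to 12.5 ± 0.650 FPKM and Gins3 from 5.91 ± 0.894 to 25.7 ± 2.53 FPKM.

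Gins4 stood apart from the other GINS subunits. It had 36.4, 35.5 and 40.0 FPKM before culture, far above the other GINS genes, and 54.5, 58.8 and 56.8 FPKM after it (0.59 ± 0.07 SE in log2, adjusted p = 0.00012). Gins4 (ENSMUSG00000031546, chromosome 8, 23226616 to 23237659) made up 79.8, 78.7 and 82.7% of the summed GINS level in the Initial libraries and 50.7, 52.8 and 54.4% in the Induced libraries. Across the complex the highest subunit was 24.6 to 33.8 times the lowest in Initial and 4.57 to 4.82 times in Induced libraries (exact permutation p = 0.1). The level of Gins2 is uncertain, because 67.3% of its exon bases also lie in exons of Gse1 on the other strand, at 4.32 to 5.15 FPKM in Initial and 2.22 to 3.18 FPKM in Induced libraries, and the sources used here do not say whether fragments were counted by strand.

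**Figure D2:**
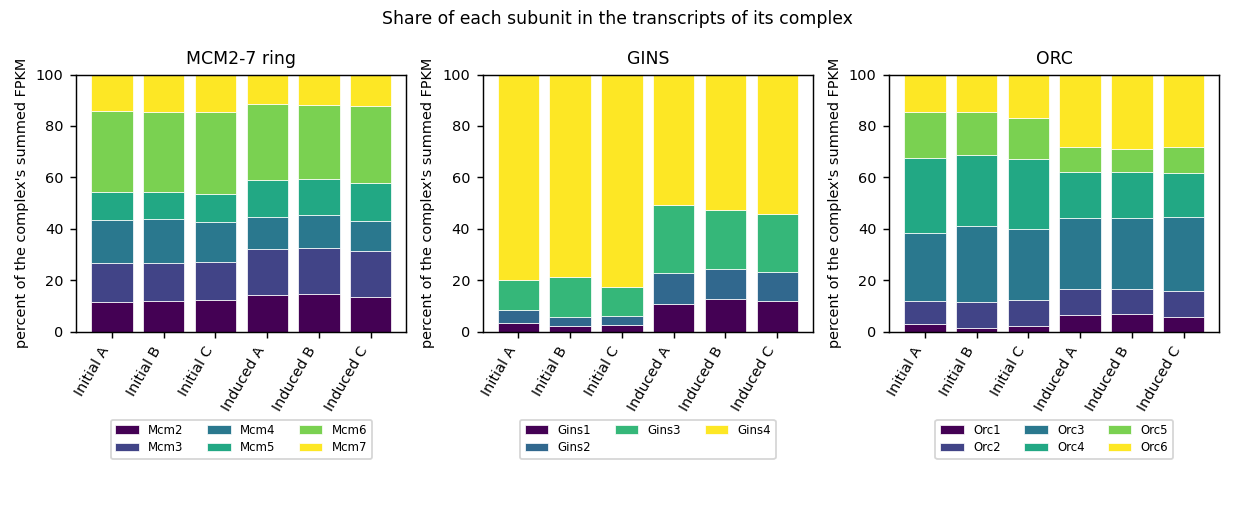
Share of each subunit in the summed FPKM of its complex, in percent, in each of the 6 libraries, for the MCM ring, GINS and ORC. Mcm5 goes from 10.7 to 14.4% of the MCM ring, Gins4 goes from about 80 to about 53% of GINS, and in ORC the shares of Orc1 and Orc6 grow while those of Orc4 and Orc5 shrink.

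Of the 6 genes of the origin recognition complex, which marks where copying can start, 4 rose, 1 fell and 1 did not pass. Orc1, the ATPase that varies with the cell cycle, had 3.75, 1.84 and 2.71 FPKM in Initial and 11.1, 12.0 and 10.2 FPKM in Induced libraries (1.71 ± 0.18 SE in log2, adjusted p = 7.3e-05). It was the lowest of the 46 genes in every Induced library. With a pseudocount of 5 the change of Orc1 was 1.059, below that of Orc6 (1.218). Orc6 rose from 18.7 ± 2.34 to 50.003 ± 1.43 FPKM (1.38 ± 0.09 SE in log2), and Orc2 and Orc3 rose by log2 changes of 0.55 (SE 0.09) and 0.54 (SE 0.07). Orc2 shares 29.8% of its exon bases with Nif3l1 on the other strand, so its level is uncertain. In Orc6, 6.9% of exon bases also lie in exons of Vps35 on the other strand. Vps35 had 53.7 to 58.7 FPKM in Initial and 83.9 to 86.3 FPKM in Induced libraries. The level of Orc6 and its share of the complex are therefore uncertain too.

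Orc4 and Orc5, ATPase-family subunits of the complex, did not follow. Orc5 (ENSMUSG00000029012, chromosome 5, 22486485 to 22550429) had 21.0, 20.2 and 19.9 FPKM before and 16.8, 15.5 and 18.2 FPKM after culture. It was lower in every mouse and fell, with a log2 change of -0.26 ± 0.08 (SE; adjusted p = 0.0162). The call was lost without Induced library B (adjusted p = 0.0605) and on the scale set by CD3 chain and Trdc levels (log2 change -0.05, adjusted p = 0.664), within a range of 0.00566 to 0.664 over the 16 alternatives. Orc4 (ENSMUSG00000026761, chromosome 2, 48902824 to 48950277) had 34.6, 33.2 and 34.0 FPKM in the Initial and 30.9, 32.0 and 29.7 FPKM in the Induced libraries. Its groups did not overlap, but the change of -0.13 ± 0.06 (SE; adjusted p = 0.088) did not pass, except after quantile normalization (adjusted p = 0.0419, range over the alternatives 0.0419 to 0.343). As a share of the complex's summed FPKM, Orc5 went from 16.8 ± 0.967 to 9.57 ± 0.817% and Orc6 from 15.4 ± 1.45 to 28.4 ± 0.525% (exact permutation p = 0.1 for both).

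The loaders of the ring moved unequally. Cdc6 (ENSMUSG00000017499, chromosome 11, 98907801 to 98923940), the ATPase that brings the ring to ORC, had 1.96, 1.08 and 1.72 FPKM in Initial and 24.0, 27.9 and 22.7 FPKM in Induced libraries. With a log2 change of 3.33 ± 0.15 (SE; adjusted p = 7.1e-07) it came second among the 46 genes with a pseudocount of 1 or 0.1 and lower, at 2.18, behind Lig1, Gmnn and Mcm10 with a pseudocount of 5. Cdt1 (ENSMUSG00000006585, chromosome 8, 122568015 to 122573554), its partner, had 43.0, 38.3 and 39.1 FPKM before and 41.8, 41.2 and 44.0 FPKM after culture. The groups overlapped, Cdt1 was higher in 2 of the 3 mice, and the change of 0.08 ± 0.07 (SE; adjusted p = 0.337) did not pass. On the scale set by CD3 chain and Trdc levels it did (log2 change 0.30, adjusted p = 0.0108, range over the alternatives 0.0108 to 0.851).

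Geminin, the inhibitor of Cdt1, rose. Gmnn went from 17.1 ± 1.82 to 105 ± 4.01 FPKM (2.55 ± 0.08 SE in log2, adjusted p = 1.7e-07). The ratio of Gmnn to Cdt1 was 0.399, 0.399 and 0.484 in the Initial libraries and 2.41, 2.64 and 2.38 in the Induced libraries, so Cdt1 was the more abundant message before culture and Gmnn after it. Both Cdt1 and Gins2 are listed in the deposited tables under a single locus of 4435365 bases.

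The kinase that fires origins held 1 gene that rose and 1 that fell. Cdc7, the catalytic subunit, had 4.82, 6.31 and 6.76 FPKM in Initial and 25.9, 27.4 and 25.9 FPKM in Induced libraries (1.99 ± 0.11 SE in log2, adjusted p = 2.5e-06). Dbf4, its activator (ENSMUSG00000002297, chromosome 5, 8396973 to 8422716), had 42.8, 35.7 and 46.6 FPKM before and 28.9, 31.7 and 30.6 FPKM after culture. It was lower in every mouse, with no overlap, and fell, with a log2 change of -0.44 ± 0.10 (SE; adjusted p = 0.00529). On the scale set by CD3 chain and Trdc levels the change was -0.21 and the call was lost (adjusted p = 0.0668, range over the alternatives 0.00115 to 0.0668). The ratio of Dbf4 to Cdc7 was 8.87, 5.65 and 6.90 in the Initial libraries and 1.12, 1.16 and 1.18 in the Induced libraries (exact permutation p = 0.1). Both messages lay close to each other after culture.

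**Figure D3:**
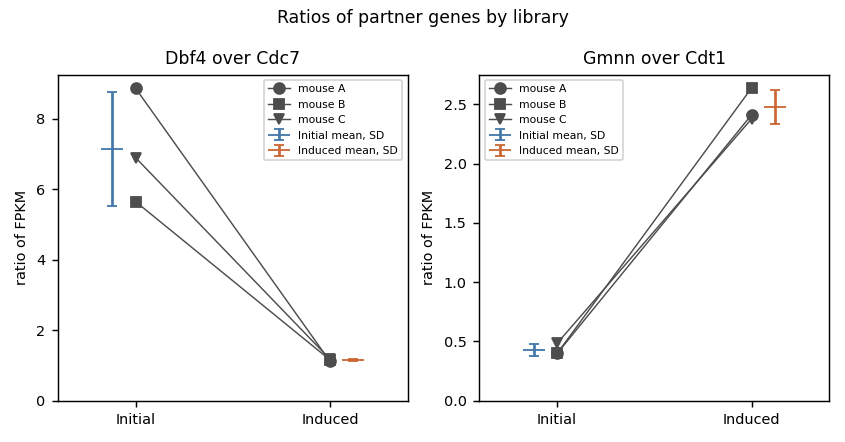
Ratio of FPKM between Dbf4 and Cdc7 (left) and between Gmnn and Cdt1 (right) in each mouse, Initial and Induced joined by a line, with the mean and SD of each group beside the points. Dbf4 over Cdc7 falls from between 5.65 and 8.87 to between 1.12 and 1.18, and Gmnn over Cdt1 rises from at most 0.484 to at least 2.38.

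All 9 genes of the replicative polymerases among the 46 rose. Pold4, Pole3 and Pole4, small subunits of polymerases δ and ε, belong to the list of other replication factors described further on. Pola1, the catalytic subunit of polymerase α, had 2.72, 2.29 and 2.74 FPKM in Initial and 15.0, 15.8 and 19.1 FPKM in Induced libraries (2.29 ± 0.11 SE in log2, adjusted p = 1.2e-06). Its accessory subunit Pola2 went from 20.1, 19.8 and 20.7 FPKM to 46.9, 50.5 and 48.1 FPKM (1.22 ± 0.06 SE in log2, adjusted p = 1.4e-06). The catalytic subunit stood below the accessory one in every library of both groups. The primase genes had 13.2 ± 1.79 and 52.8 ± 0.636 FPKM (Prim1) and 10.2 ± 0.841 and 33.0 ± 1.41 FPKM (Prim2), and Prim1 lay above Pola2 in every Induced library. Across the 4 subunits the highest was 7.86 ± 0.669 times the lowest before and 3.21 ± 0.368 times after culture (exact permutation p = 0.1).

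Polymerase ε, the leading-strand enzyme, and polymerase δ, the lagging-strand enzyme, both rose. The log2 changes were 1.60 to 2.60 over Pole and Pole2 and 0.81 to 1.2997 over Pold1, Pold2 and Pold3. These ranges overlapped with a pseudocount of 5, at 1.526 for Pole, 1.157 for Pole2 and 1.189 for Pold1. With a pseudocount of 1 the small subunits had lower values. Pole3 (0.53, SE 0.09) and Pole4 (0.35, SE 0.07) rose, and Pold4 (-0.0019, adjusted p = 0.983) did not pass. Pole, the catalytic subunit, had 1.17, 1.60 and 1.34 FPKM in the Initial and 12.8, 13.5 and 13.8 FPKM in the Induced libraries (2.60 ± 0.10 SE in log2, adjusted p = 3.9e-07), and Pole2 had 5.81, 4.56 and 5.32 FPKM and then 17.4, 16.2 and 19.9 FPKM (1.60 ± 0.11 SE in log2). Pold1, the catalytic subunit of polymerase δ, went from 24.8, 28.8 and 28.6 FPKM to 63.4, 73.6 and 69.4 FPKM (1.2997 ± 0.09 SE in log2, adjusted p = 5.2e-06). Pold2 had 39.8, 38.1 and 38.5 FPKM before and 63.9, 67.0 and 76.2 FPKM after culture (0.81 ± 0.08 SE in log2, adjusted p = 3.9e-05), and Pold3 changed by 0.82 (SE 0.08). Across Pold1, Pold2 and Pold3 the highest was 1.98 ± 0.147 times the lowest before and 2.01 ± 0.178 times after culture (exact permutation p = 0.8). In level, Pold1 stayed above Pole in every library of both groups. The difference in change between them was not tested.

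The clamp and its loader rose in all 6 genes. Pcna, the clamp, was the highest of the 46 genes before culture, at 104, 99.5 and 115 FPKM, and reached 245, 254 and 251 FPKM (1.23 ± 0.07 SE in log2, adjusted p = 2.4e-06). In Induced libraries Mcm6 stood above it. Rfc4 had the largest change of the loader, from 15.6, 18.3 and 20.1 FPKM to 62.6, 70.2 and 69.8 FPKM (1.86 ± 0.10 SE in log2, adjusted p = 1.8e-06). Rfc1, the large subunit, had the smallest, from 17.05, 15.7 and 17.6 FPKM to 24.5, 27.5 and 28.3 FPKM (0.64 ± 0.08 SE in log2, adjusted p = 0.0002). The change of Rfc2 was 0.90 (SE 0.07), that of Rfc3 1.53 (SE 0.13) and that of Rfc5 1.65 (SE 0.06). Rfc4, Rfc2 and Rfc5 share 12.7%, 15.1% and 10.7% of their exon bases with Eif4a2, Lat2 and Wsb2 on the other strand, so their levels are uncertain. Eif4a2 and Lat2 were lower in every Induced than in every Initial library.

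Genes that finish the lagging strand rose as well. Lig1, the ligase that seals Okazaki fragments, had 7.11, 5.58 and 9.43 FPKM in Initial and 55.9, 60.04 and 58.1 FPKM in Induced libraries (2.84 ± 0.15 SE in log2, adjusted p = 2.3e-06). Fen1, the flap nuclease that acts before it, went from 47.0, 37.8 and 42.8 FPKM to 125, 136 and 128 FPKM (1.59 ± 0.09 SE in log2, adjusted p = 2.1e-06). Most of the exon bases of Fen1, 78.8%, also lie in Gm10143 on the other strand, which had 6.05 to 6.35 FPKM in Initial and 12.3 to 14.2 FPKM in Induced libraries, so the level of Fen1 is uncertain. The 3 RPA subunits, which coat single-stranded DNA, rose by different amounts. Rpa3, the smallest, had 14.6, 18.3 and 20.0 FPKM and then 52.5, 55.4 and 56.4 FPKM (1.59 ± 0.11 SE in log2, adjusted p = 6.7e-06). Rpa2 had 52.3, 44.4 and 52.5 FPKM and then 76.1, 83.8 and 82.2 FPKM (0.69 ± 0.08 SE in log2, adjusted p = 0.00015), and Rpa1 changed by 0.92 (SE 0.06). The highest subunit was 2.92 ± 0.575 times the lowest before and 1.55 ± 0.0497 times after culture (exact permutation p = 0.1).

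Messages for proteins that travel with the fork and guard it rose by log2 changes of 2.203 to 2.74. Clspn, the adaptor that passes the replication stress signal to the kinase Chek1, had 1.35, 0.810 and 0.714 FPKM in Initial and 12.0, 12.5 and 11.4 FPKM in Induced libraries (2.74 ± 0.14 SE in log2, adjusted p = 1.2e-06). It was the lowest of the 46 genes in Initial libraries B and C. With a pseudocount of 5 the change of Clspn was 1.511, below those of Wdhd1 (1.546) and Tipin (2.141). Wdhd1, which links the helicase to polymerase α, had 3.92, 3.35 and 3.45 FPKM and then 19.3, 19.6 and 21.3 FPKM (2.203 ± 0.09 SE in log2, adjusted p = 3.9e-07). Tipin, partner of Timeless in the fork protection complex, went from 26.1 ± 1.34 to 132 ± 2.09 FPKM (2.30 ± 0.06 SE in log2, adjusted p = 7.9e-08).

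**Figure D4:**
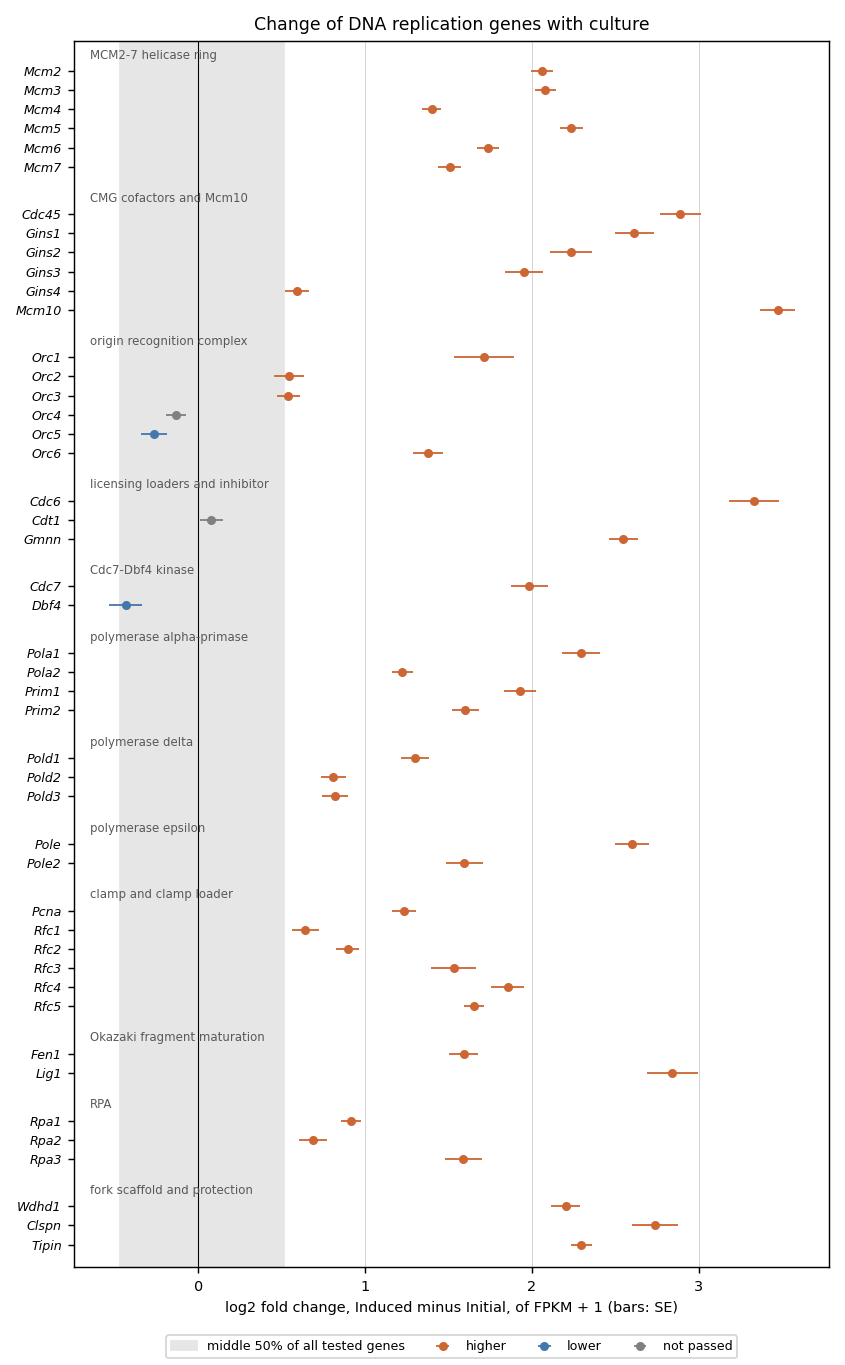
Log2 fold change of each of the 46 genes, Induced minus Initial, on the scale of log2(FPKM + 1), with bars for the SE and the middle 50% of all tested genes as a grey band. Orange points rose, blue points fell and grey points did not pass the test. Most points lie right of the band, and Orc4, Orc5, Cdt1 and Dbf4 lie within it.

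Further genes of the pathway, from lists of factors that are not among the 46, were set beside them. Of 30 other replication factors 26 rose, 1 fell and 3 did not pass, with a median log2 change of 1.51. Over all genes tested 37.3% rose and 33.1% fell. Among the 26, Chtf8, part of a clamp loader variant, had overlapping groups (22.1 ± 4.45 and 31.7 ± 5.36 FPKM, adjusted p = 0.025) and lost its call without the filter, without Initial library B or C and without Induced library A or C (adjusted p up to 0.0804, range over the alternatives 0.00411 to 0.0804). Pclaf, a PCNA-binding factor listed in the tables under an older symbol, went from 12.1 ± 3.47 to 203 ± 12.0 FPKM, and Top2a, the topoisomerase that untangles daughter strands, from 10.03 ± 1.75 to 166 ± 6.31 FPKM. In log2 they changed by 3.99 (SE 0.18) and 3.93 (SE 0.11). Mcm9, an MCM relative that acts in repair rather than in the ring, fell from 6.61 ± 0.130 to 5.26 ± 0.186 FPKM (-0.28 ± 0.08 SE in log2, adjusted p = 0.0161), and the call was lost on the scale set by CD3 chain and Trdc levels (adjusted p = 0.466, range over the alternatives 0.0074 to 0.466). Pold4, Rnaseh2c and Top1 did not pass (20.5 ± 0.335 and 20.5 ± 1.11 FPKM, 20.8 ± 3.29 and 23.2 ± 2.44 FPKM, and 26.2 ± 1.85 and 24.7 ± 0.804 FPKM), though Pold4 and Rnaseh2c passed as higher on that scale (adjusted p = 0.0466 and 0.0127, ranges over the alternatives 0.0466 to 0.985 and 0.0127 to 0.773).

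In the S phase checkpoint list 10 of 12 genes rose and none fell, beside 37.3% and 33.1% of all genes tested. The median log2 change of the list was 1.08. The checkpoint kinase gene Chek1 went from 1.61 ± 0.317 to 13.8 ± 0.124 FPKM (2.51 ± 0.11 SE in log2). The upstream kinase Atr and its partner Atrip did not pass, at 4.25 ± 1.02 and 4.46 ± 0.862 FPKM and at 9.00 ± 0.6001 and 10.02 ± 1.19 FPKM. On the scale set by CD3 chain and Trdc levels Atrip passed (adjusted p = 0.0355, range over the alternatives 0.0355 to 0.581).

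Polymerases of repair and lesion bypass and the genes that copy mitochondrial DNA were set beside them too. Of 12 repair and bypass polymerase genes 11 were tested, of which 7 rose and 1 fell, with a median log2 change of 0.37, beside 37.3% and 33.1% of all genes tested. With the filter at FPKM 5 the count of rises was 5, and Rev1 lost its call without Initial library B (adjusted p = 0.0543, range over the alternatives 0.00243 to 0.0543). Polh, the enzyme that copies past ultraviolet damage, went from 1.84 ± 0.0819 to 7.88 ± 1.01 FPKM, and Polk from 4.16 ± 0.406 to 10.7 ± 0.688 FPKM. Polm, an end-joining polymerase, fell from 8.26 ± 0.528 to 5.72 ± 0.635 FPKM (-0.46 ± 0.10 SE in log2, adjusted p = 0.00381), and the call was lost on the scale set by CD3 chain and Trdc levels (adjusted p = 0.0738, range 0.00192 to 0.0738). Of 8 mitochondrial replication genes 1 rose and 3 (Polg2, Tfam and Polg) fell, with a median log2 change of -0.12, where 33.1% of all genes tested fell, a share close to that of the list. Polg2, the accessory subunit of the mitochondrial polymerase, fell from 22.3 ± 1.80 to 5.42 ± 0.356 FPKM (-1.86 ± 0.09 SE in log2, adjusted p = 1e-06), and Tfam, which packs mitochondrial DNA, from 35.6 ± 4.78 to 25.8 ± 1.14 FPKM (-0.44 ± 0.10 SE in log2, adjusted p = 0.00431). The fall of Polg was lost without Initial library B or C, without Induced library A or B, without the filter and on the CD3 and Trdc scale (adjusted p from 0.00969 to 0.84 over the alternatives). The nuclease gene Mgme1 rose from 3.38 ± 0.271 to 7.38 ± 0.392 FPKM. With the mouse as a block 2 of these 8 genes rose, Ssbp1 being the added one, as it was without Initial library C (46.7 ± 5.55 and 56.3 ± 6.82 FPKM, adjusted p = 0.0667 without and 0.0187 with the block, range over the alternatives 0.00256 to 0.211). The medians of the lists were not tested against each other.

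**Figure D5:**
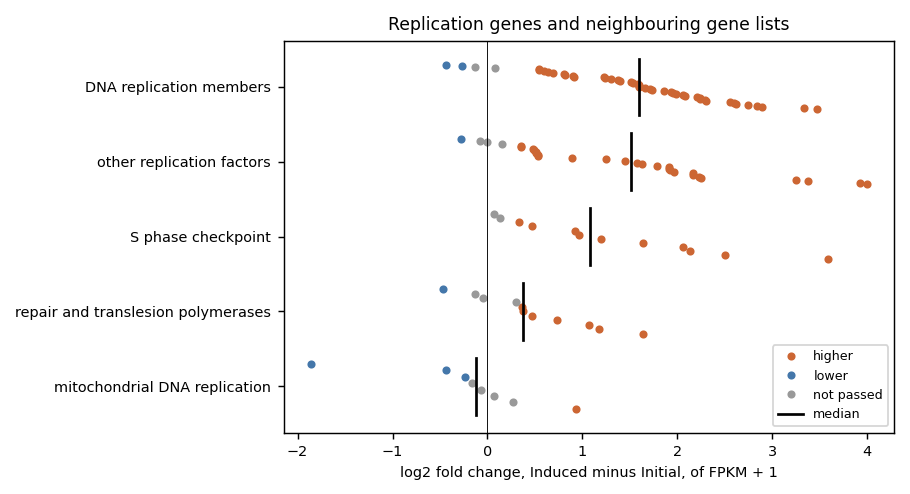
Log2 fold change, Induced minus Initial, of each tested gene in the 46 replication genes and in 4 neighbouring lists, 1 point per gene, with the median as a bar. Medians run from 1.60 in the replication genes over 1.51, 1.08 and 0.37 to -0.12 in the mitochondrial list.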

How the data were processed

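Per the file headers, the deposited tables hold FPKM, 1 library to a table, beside gene identifier, symbol and locus. The tools named per the submitters' processing notes are CASAVA, HISAT2 2.0.5 and Cuffdiff (both 1.3.0 and 2.2.1), with build mm9, but the loci match GENCODE vM21 positions on GRCm38, which are given here. A gene absent from a table counted as 0. The deposited FPKM were not counts, so log2(FPKM + 1) was tested with limma 3.58.1 in R 4.3.3 (trend, robust, two-sided, no block) over the genes that reached an FPKM of 1 in 3 or more libraries. The test was also run on simulated data in which few genes were changed. Unlike here, most genes did not move in them, so that run does not check the scaling between the groups. Python 3.11.15, pandas 2.3.3, numpy 2.4.6, scipy 1.17.1 and matplotlib 3.10.9 produced the other values and the plots.

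The replication genes, the other lists and the tests were chosen with earlier results of these data known. Values per library are given for the largest and smallest change of each role group and for genes that fell or did not pass, and for Pcna besides, chosen after its values were seen. From each other list the largest 2 rises and 2 falls past the threshold are named, and genes that did not pass were added after their values were seen. Some genes that the rule or the marker lists would name are not reported here. The labels give the same mouse letters to both groups, which pairs the libraries by animal. Correlations of deviations from the group means were 0.0393, 0.0307 and 0.1308 within a mouse and ran from -0.1324 to 0.0988 between mice. Depths are rough: 44.5 to 49.3% of low values lay within 0.15 of a whole fragment, where chance gives 30%.

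Other settings tried were a pseudocount of 0.1 or 5, dropping the filter, a filter at FPKM 5, TMM-like factors, a common sum, quantile normalization, scaling on the levels of the CD3 chains (Cd3d, Cd3e, Cd3g and Cd247) with Trdc, a fit with the mouse as block, the moderated test without robust and trend options, and dropping each library in turn.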

Additional observations from a re-analysis of the deposited data

How the results depend on the processing

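Of the 46 replication genes, 42 kept their direction and their side of the threshold under all 16 alternatives. The exceptions were Orc4, Orc5, Cdt1 and Dbf4, with no reversal. The count of replication genes that rose was 43 on the scale set by CD3 chain and Trdc levels and 42 under each other alternative. The count that fell was 0 under that scaling, 3 after quantile normalization, and ran from 1 to 2 when each library was left out (1 without Induced library B). The median log2 fold change of the replication genes was 1.695 with a pseudocount of 0.1, 1.377 with a pseudocount of 5 and 1.815 on the CD3 and Trdc scale. That scaling moved the median of all genes from 0.028 to 0.234 and the share of higher calls from 52.9 to 66.8%. There 0 of the other replication factors and 0 of the repair and bypass polymerases fell, 2 mitochondrial genes rose, and the log2 change of Pold4, called there, turned from -0.002 to 0.215 (adjusted p = 0.0466). Of the genes that set it, Cd3d and Cd3e fell. With the mouse as a replicate block 2 mitochondrial genes rose, and the count ran from 1 to 2 when each library was left out (2 without Initial library C). The fall of Polg was lost without the filter (adjusted p = 0.0543), on the CD3 and Trdc scale (adjusted p = 0.84) and without Initial library B or C or Induced library A or B. The block changed no call among the 46 genes and gave 4193 rises and 3750 falls over all genes. Depth limits the genes near 1 FPKM before culture, such as Clspn and Mcm10, most.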

Other observations

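Chromosome 5 held 9 of the 46 (Mcm7, Orc5, Cdc7, Dbf4, Pole, Rfc1, Rfc2, Rfc3 and Rfc5), or 19.6%, against 6.41% of the genes tested, and chromosome 8 held 6 (Mcm5, Gins2, Gins3, Gins4, Orc6 and Cdt1), or 13.0%, against 5.38%. Those on chromosome 5 moved in both directions, from -0.44 for Dbf4 to 2.60 for Pole on the log2 scale, and those on chromosome 8 from 0.08 for Cdt1 to 2.24 for Mcm5. These shares are a description and were not tested.

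Chromatin assembly factors that follow the fork and bring histones to new DNA rose with the replication genes. Asf1b, a histone chaperone, went from 15.7 ± 1.19 to 172 ± 9.10 FPKM, Chaf1a from 3.04 ± 0.380 to 37.5 ± 2.66 FPKM and its partner Chaf1b from 10.4 ± 1.19 to 34.0 ± 2.16 FPKM. Ssrp1 and Supt16, both parts of the FACT histone chaperone, rose from 81.1 ± 1.95 to 151 ± 5.65 FPKM and from 13.4 ± 0.0764 to 17.4 ± 1.07 FPKM. Ticrr, Mtbp, Topbp1 and Recql4, which act with Cdc45 and GINS when origins fire, also rose, by log2 fold changes of 1.91, 1.79, 1.24 and 1.45. These genes were picked out of the list of other replication factors after their values were seen.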
